A study of Mus musculus with 3 samples.

Results

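The regions described here hold the most DNase I tags among the sites that fat cells from 3 mouse depots have in common. They were chosen by their normalized tag counts: a region had to hold exactly 1 DNase hypersensitive site of each depot's list and to be among the highest 10% of such regions in all depots, namely the epididymal (eWAT) and inguinal (iWAT) white depots and the brown one (BAT). Of 24988 regions with 1 site per list, 1311 met this rule. Of these, 21 lie in the first 3.3 Mb of a chromosome or in a short stretch of chromosome 2, where the 3 regions concerned fall between 98502746 and 98507400. These positions are treated as repeat-like and described apart. The other 1290 are called members below. The 3 lists merge into 99297 regions in all, and coordinates are those of mm9. Where 3 values follow each other below without a depot's name, they stand in the order eWAT, iWAT, BAT.

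DNase I cuts DNA where nucleosomes are displaced, so the number of cut ends (tags) at a place gauges how often it is open in the cells sampled. Strong hypersensitive sites are typically promoters, enhancers and insulators, the last being the binding places of the factor CTCF, which shapes chromatin loops. Promoters of widely used genes and insulators tend to be open in many cell types, while enhancers are more often specific to a cell type. Which of these classes a member belongs to was not analysed here, since no mm9 gene annotation or sequence was used.

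Each depot was represented by 1 library. All cells came from male NMRI mice of 4 to 5 weeks: precursor-holding stromal-vascular cells of the epididymal pad, the inguinal pad, or several pooled upper-body brown pads were differentiated in culture. All 3 cultures received 30 nM insulin, 10% newborn calf serum and 1 µM rosiglitazone, an activator of the fat cell regulator PPARγ, and were harvested 8 days after plating. Their chromatin was cut with 120 U/ml DNase I. Cultures with over 50% differentiation were used, so other cells of the stromal-vascular fraction could be present, and the labelled cell types could not be checked against marker genes. The lists held 60974, 63214 and 48308 sites. With no replicates, every difference between depots is a difference between 3 libraries, and no test between depots was made.

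The thresholds for the highest 10% were normalized tag counts of 24.4, 39.4 and 31.7. The normalized tag count is the number of tags at a site after the authors scaled each library, and a single tag is worth 0.595, 0.985 and 0.857 of it in the respective lists. The thresholds thus equal 41, 40 and 37 whole tags, and 95.3%, 95.3% and 93.9% of all sites of the lists lie below them. The members thus sit at the extreme of each list. Just inside the limit, chr1:181900100-181900414 held 34.5, 39.4 and 36.8 normalized tags. Just outside, chr1:155997573-155997835 held 32.7, 60.1 and 30.8. The latter missed only in BAT, by 1 tag, although its iWAT value was well above that of the former. A further pair just inside, chr11:28243401-28243810 and chr11:87257111-87257379, also stood exactly at the iWAT threshold, with 33.3 and 29.7 normalized tags in eWAT next to 33.4 and 42.8 from BAT. More members shared this iWAT value, so those named are only examples of the ones tied there. Outside, chr1:165310354-165310620 and chr10:66648426-66648650 tied with chr1:155997573-155997835, again missing by 1 BAT tag, at 30.8. Their eWAT values were 27.4 and 25.6 and their iWAT values 43.3 and 47.3. The boundary of the set is therefore no finer than 1 tag.

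About 50% of the regions that passed a depot's threshold passed both others: 52.1%, 50.8% and 52.1%, ties at the threshold included. Members were 5.18% of the 24897 common regions outside the repeat-like stretches. All other counts and shares in this paragraph include the repeat-like regions. Regions past the thresholds of exactly 2 depots were fewer, with 402 for eWAT and iWAT, 289 for eWAT and BAT and 264 for iWAT and BAT. Regions past that of a single depot numbered 515, 603 and 650. The share found in all depots was lower at the very top. There 111 regions, 15 of them repeat-like, were in the top 1% of every depot (42.2%, 41.7% and 42.2% of the regions there). The share was higher lower down, with 3035 regions, 31 of them repeat-like, in the top 20% of every depot (57.0%, 57.6% and 57.6%). These shares describe the ranking that chose the members and are no separate result.

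Most members were only moderately above the thresholds. The eWAT values of members ranged from 24.4 to 430.6 normalized tags with a median of 32.7. The iWAT values ranged from 39.4 to 731 with a median of 54.2, and the BAT values from 31.7 to 575.6 with a median of 43.7. In whole tags the medians were 55.0, 55.0 and 51.0, and the middle 50% of members lay between 47.9 and 64.1, between 48.0 and 65.0, and between 43.0 and 60.9. Common regions outside the set had medians of 21.0, 19.0 and 17.0 tags. Members made up 2.12% of the eWAT sites and held 6.47% of the tags of that list. For iWAT these shares were 2.04% and 6.86%, and for BAT 2.67% and 8.25%. At least 50 tags in every list were held by 491 members. Few reached far higher: 17 held at least 100 and 6 at least 200.

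**Figure D1:**
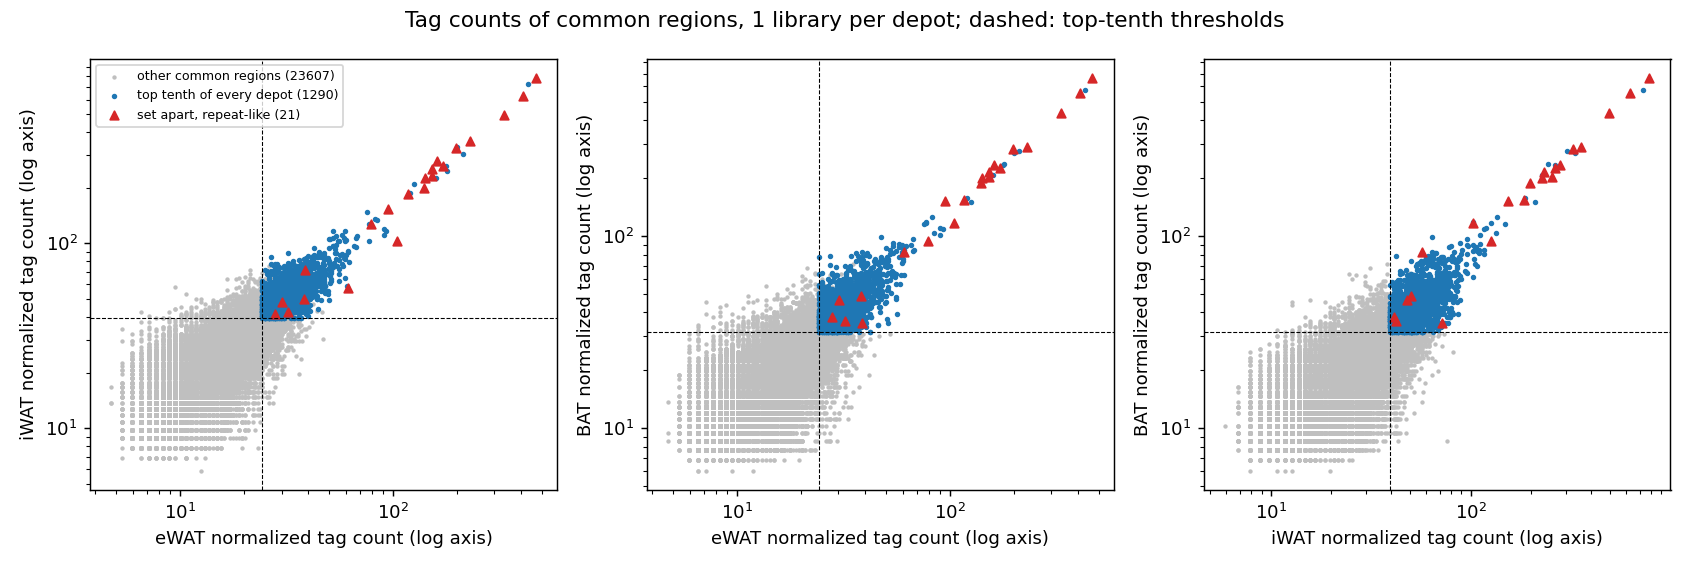
Normalized tag counts of common regions in each pair of depots, on log axes, with 1 point per region: grey for other common regions, blue for the 1290 members and red triangles for the 21 set apart. Dashed lines mark the thresholds of 24.4, 39.4 and 31.7, and at the upper end the few members with over 100 tags lie along the same line as most of the triangles.

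The member ranked highest in all depots was chr9:35112912-35113136, with 724, 742 and 672 tags. Its tag density stood 60.1, 66.4 and 58.6 times above the surroundings. The second, chr4:70039124-70039349, held 357, 308 and 325 tags, and the third, chr8:24206003-24206229, held 338, 336 and 317. Both also stood far above their surroundings, by 81.0, 75.4 and 82.1 times and by 59.9, 71.8 and 60.8 times. On chromosome 12 lay the fourth and the fifth, chr12:68160261-68160486 with 300, 267 and 272 tags and chr12:75905165-75905389 with 302, 249 and 277. Their fold over the surroundings was lower, at 27.4, 30.3 and 28.5 and at 34.6, 32.5 and 34.7. The sixth, chr3:56379367-56379593, held 267, 230 and 242 tags, and after it the level dropped to 203, 191 and 183 tags at chr13:77578067-77578398. The last of the 10 highest were chr18:56099039-56099262 with 211, 214 and 176 tags, chr12:48934944-48935166 with 138, 137 and 147, and chrX:139917491-139917713 with 152, 121 and 128. The X-linked region had the highest fold over the surroundings of all members in every list, at 187.7, 266.5 and 178.2. In 9 of these 10 regions the centres of the 3 sites lay within 5 bp of each other, and in chr13:77578067-77578398 within 109 bp. For these 10 the SD of the centred log2 ratio (explained below) was 0.13 between iWAT and eWAT. It was 0.10 between BAT and eWAT and 0.13 between BAT and iWAT. The 10 were chosen for a high rank in every list, which limits these ratios, so nothing is read from the SDs. They also hold more tags than most members, and the part of tag number in this was not tested. Their tag counts fall in the range of the repeat-like regions set apart. No repeat annotation of mm9 was used, so whether these regions are open chromatin or hold repeated sequence was not tested.

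Members differed widely in how far they rose above their surroundings. The median fold was 13.5, 17.6 and 17.1, against 8.44, 11.5 and 10.3 for the other common regions. The fold is computed from the tags that chose the members, so a higher median follows in part from the choice. In all 3 lists at once, 236 members (18.3%) stood at least 20 times above their surroundings and 21 (1.63%) at least 40 times. Of the other common regions 1.23% and 0.0254% did. At the other end 52 members (4.03%) stayed under 8 times in every list and 13 (1.01%) under 6 times, against 13.7% and 2.80% of the others. The lowest by the highest of their 3 values were chr8:37673796-37674221, at 4.77, 4.37 and 4.75 times with 49, 43 and 46 tags, and chr8:11384699-11384985, at 4.76, 4.85 and 4.79 times with 53, 45 and 38 tags. These 2 were singled out after their values were seen, and they lie near the minimum of 4 that every listed site had. Members ranked similarly by fold in the 3 libraries. Spearman's rho over the 1290 members was 0.88 for each pair of depots. Over the other common regions it was 0.69, 0.66 and 0.66 (eWAT and iWAT, eWAT and BAT, iWAT and BAT). For the tag count, which chose the members, rho was 0.58, 0.55 and 0.50 over members and 0.68, 0.61 and 0.63 over the others. The others hold fewer tags, and the part of tag number in these values was not tested. These are descriptions across regions, whose values in a list all come from 1 library.

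The focus ratio, a fraction that gauges how sharply the tags of a site are centred, varied less. Its median over members was 0.710, 0.727 and 0.726, and 0.686, 0.704 and 0.706 over the other common regions. Which members were sharp and which were broad was similar between libraries, with a rho of 0.70, 0.69 and 0.67 in the same order of pairs. Over the other common regions rho was 0.32, 0.30 and 0.30, and these regions hold fewer tags. The part of tag number in this was not tested. In every list 7 members (0.543%) had a ratio of at least 0.9, against 0.0678% of the other common regions, and 10 (0.775%) stayed under 0.6, against 0.580%. Singled out after their values were seen, the extremes were as follows. The sharpest, chr1:24619476-24619702, reached 0.989, 0.989 and 0.992. The broadest, chr1:65224280-65224516, had 0.517, 0.560 and 0.535 and also a low fold of 4.36, 5.40 and 4.54 over its surroundings.

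Tag counts of members were also compared between depots, beside all common regions. Ratios between depots were centred on the median over all common regions, since how the authors scaled the libraries to each other is unknown here, and 2-fold was taken as the limit. Past it lay 1 member relatively higher in iWAT than in eWAT (background 1.8% of common regions) and 0 in the opposite direction (1.95%). Between BAT and eWAT, 5 members were over 2-fold higher in BAT (2.74%) and 0 in eWAT (2.44%). Between BAT and iWAT, 1 member was over 2-fold higher in BAT (2.78%) and 0 in iWAT (2.78%). Past 1.5-fold lay 49 members towards iWAT (9.9%) and 3 towards eWAT (10.4%), 89 towards BAT (11.5%) and 7 towards eWAT (11.7%), and 54 towards BAT (12.3%) and 29 towards iWAT (12.4%), for the same pairs in the same order. Being past the threshold of every depot limits such ratios by construction, so nothing is read from these counts against the background. In 1117 members (86.6%) all 3 ratios were within 1.5-fold and in 1284 (99.5%) within 2-fold. Over all common regions these shares were 56.0% and 88.6%. The rule limits the members' shares in the same way. Members also hold more tags, and the part of tag number in this was not tested.

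The SD of the centred log2 ratio over members was 0.26 between iWAT and eWAT, 0.29 between BAT and eWAT and 0.31 between BAT and iWAT. For regions past the thresholds of only 1 or 2 depots the SDs were 0.49, 0.63 and 0.62. Both sets were selected on the values compared, which narrows the spread of the former and widens that of the latter, so nothing is read from the SDs. The median member was shifted against the common regions by 0.12 (log2) towards iWAT and 0.14 towards BAT when compared with eWAT, and by 0.01 between BAT and iWAT. Accordingly 67.6% of members were relatively higher in iWAT than in eWAT and 70.5% in BAT than in eWAT, but 51.0% in BAT than in iWAT. Members were chosen by these same values, past a threshold in each list, so nothing is read from the shift or these shares. Whether a lower relative tag count means fewer cells with the region open or less opening per cell cannot be told apart in bulk samples.

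**Figure D2:**
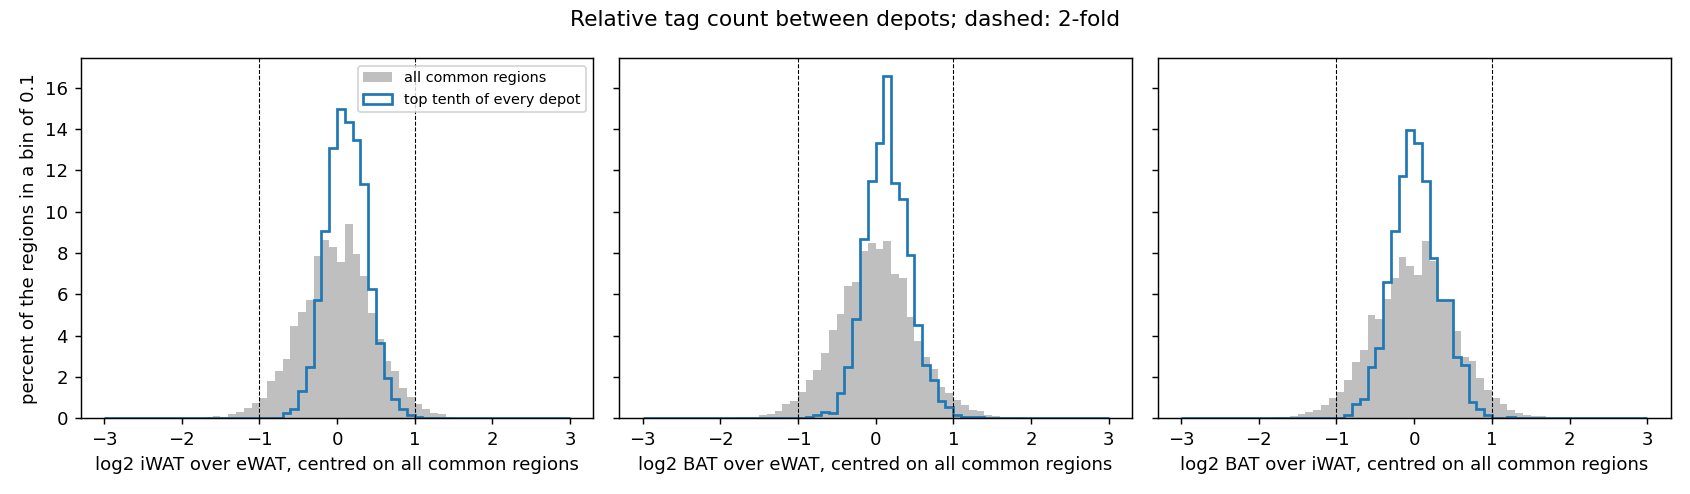
Centred log2 ratio of tag counts for each pair of depots, as the percent of regions in bins of 0.1, grey for the 24897 common regions and blue for the 1290 members. Nearly all members lie between the dashed 2-fold lines. In the comparisons with eWAT their median is shifted to the right by 0.12 and 0.14, in the values that also chose the members.

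A few members leaned towards 1 depot. The furthest towards BAT against eWAT was chr17:70048095-70048338, with 41, 61 and 91 tags and a centred log2 ratio of 1.40. In this region iWAT was intermediate. Next came chr6:58881373-58881661, with 46, 43 and 92 tags, which was higher in BAT against both eWAT (1.247) and iWAT (1.22). In that region the white depots were nearly equal and BAT stood above both. The second furthest towards BAT against iWAT was the sharpest member, chr1:24619476-24619702, with 80, 65 and 115 tags (log2 ratio 0.95).

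Towards iWAT against eWAT the furthest were chr5:117603706-117603997, with 45, 86 and 63 tags (log2 ratio 1.05), and chr13:60529252-60529476, with 45, 79 and 47 tags (0.93). In the second of these eWAT and BAT held nearly equal tags, below iWAT. After centring BAT was intermediate in both, with a log2 ratio of BAT over eWAT of 0.73 in the first and 0.31 in the second. Towards iWAT against BAT the furthest was chr7:132643808-132644069, with 95, 88 and 46 tags. There both white depots stood above BAT (log2 BAT over iWAT -0.81, BAT over eWAT -0.80). Close to it was chr14:32050497-32050762, with 46, 78 and 41 tags (log2 BAT over iWAT -0.80), where iWAT stood above both other depots. Towards eWAT the largest ratios were found in chr12:31786573-31786847, with 86, 64 and 41 tags (log2 BAT over eWAT -0.82), in chrX:73844297-73844528, with 102, 60 and 73 tags (log2 iWAT over eWAT -0.65), and in chr3:149288283-149288546, with 84, 50 and 73 tags (-0.63). The most even by rank percentile were the strongest member, chr9:35112912-35113136, and chr13:77578067-77578398, each at nearly the same rank in all lists. Near the top this measure leaves little room to differ. By centred log2 ratio the strongest member stood at 0.16 (iWAT over eWAT), 0.14 (BAT over eWAT) and -0.02 (BAT over iWAT). Some other members were more even by that measure. Each region named here was chosen for its extreme ratio or evenness, so these values carry no test.

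Some regions missed the set by far in 1 depot although they were past the thresholds of the other two. The lowest in BAT was chr15:97292857-97293117, with 44 and 77 tags in the white depots but 10 from BAT, at percentile 6.58 of the common regions there. Next in BAT was chr11:16497156-16497410, with 41, 45 and 13 tags. The lowest in eWAT were chr13:68931988-68932223, with 18 tags next to 54 and 38 elsewhere, and chr1:89744184-89744446, with 19 against 46 and 57. In iWAT the lowest values were higher, with 20 tags at chr10:98760453-98760926 (eWAT 43, BAT 37) and 21 at chr11:45697023-45697291 (eWAT 44, BAT 47). Since every region considered had a site in each list, regions without a site in a depot do not enter here.

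The position of the site within a region, which the rule used only in asking for overlap, was closely alike between depots. Over the members the largest distance between the centres of the 3 sites had a median of 37 bp, and in 26.0% (95% interval 23.7 to 28.5, exact binomial, counting error only) all 3 centres lay within 20 bp. In the regions past the thresholds of 1 or 2 depots the median was 50 bp and the share 16.9% (15.5 to 18.4). In those past none they were 81 bp and 8.31% (7.94 to 8.69). By pairs the median distance over members was 19 bp for eWAT and iWAT, 22 bp for eWAT and BAT and 22 bp for iWAT and BAT. The offset fell with the number of tags: where the lowest of the 3 lists had under 15 tags the median was 93 bp, from 20 to under 30 tags 59 bp, from 40 to under 60 tags 39 bp and from 60 tags on 26 bp. Members could be set against other regions of the same tag number only near the thresholds. With 40 to under 60 tags in the lowest list 971 of 996 regions were members, and from 60 tags on all 199. With 37 to 39 tags in the lowest list, a range chosen after the values were seen, the 120 members had a median offset of 39.5 bp with 22.5% within 20 bp (15.4 to 31.0), and the 249 other common regions 42 bp with 23.7% (18.6 to 29.5). These intervals overlap almost entirely.

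**Figure D3:**
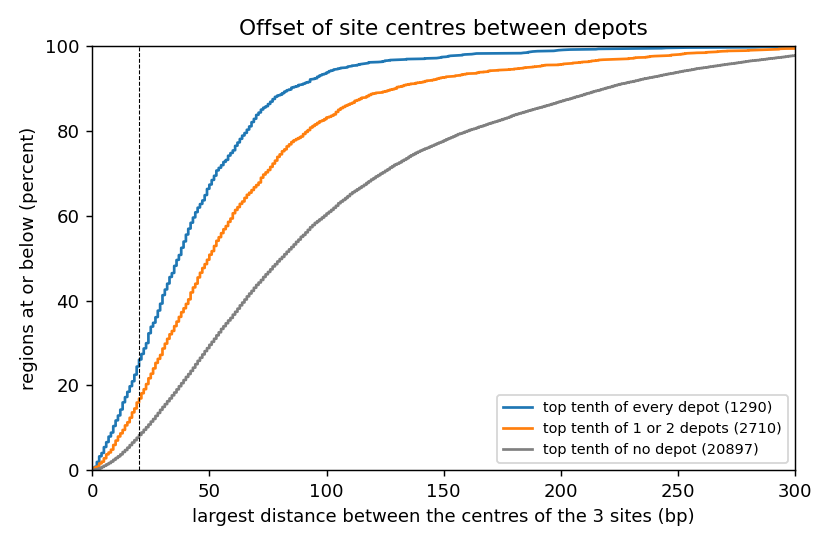
Cumulative percent of regions (vertical axis) against the largest distance in bp between the centres of a region's 3 sites (horizontal axis). The 1290 members (blue) lie above the 2710 regions past the thresholds of 1 or 2 depots (orange) and the 20897 past none (grey), and at the dashed line of 20 bp the curves stand at 26.0%, 16.9% and 8.31%.

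Members lay on all 19 autosomes and on the X chromosome. Their share of the common regions was highest on chromosome 7 (102 of 1408, 7.24%, 95% interval 5.95 to 8.73), chromosome 11 (111 of 1585, 7.003%, 5.80 to 8.37) and chromosome 19 (51 of 776, 6.57%, 4.93 to 8.55). It was lowest on the X chromosome (12 of 471, 2.55%, 1.32 to 4.41) and, among autosomes, on chromosome 14 (39 of 966, 4.04%, 2.89 to 5.48). The intervals for chromosomes 7 and 11 lay above the overall 5.18% and that for X below it. Neighbouring regions are not independent, so these intervals are too narrow. They were also looked through for 19 autosomes and X with no correction for that number. On X the share past a depot's own threshold was low in each depot taken alone, at 5.31%, 4.25% and 5.52%, and the median normalized tag counts were 10.7, 16.7 and 13.7 against 13.1, 19.7 and 15.4 on autosomes. The cells came from male mice, which carry a single X chromosome, and the part of this in the values on X was not tested. Of the 12 members on X, 1 was among the 10 strongest of all.

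**Figure D4:**
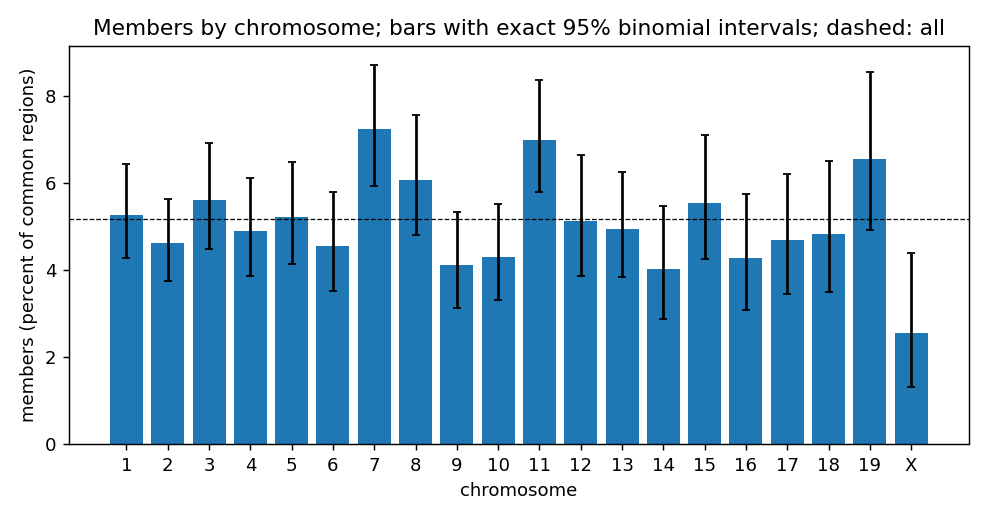
Members as percent of the common regions of each chromosome (bars from 0, with exact 95% binomial intervals), with the overall 5.18% dashed. Chromosomes 7 and 11 stand above the dashed line with their intervals and X below it, at 2.55%.

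Members were mostly solitary among their kind: the median distance to the nearest other member was 327 kb. Another member lay within 10 kb of 76 members (5.89%, 95% interval 4.67 to 7.32) and within 100 kb of 352 (27.3%). Of windows of 100 kb that held a member, 1064 held 1, 98 held 2 and 10 held 3, the most found. Where common regions did lie close to a member, however, they were often members too. Within 1 kb 16 of 44 such neighbours (36.4%) were members, and between 1 and 2 kb 22 of 58 (37.9%). Around the other common regions the shares were 3.59% and 3.3%, and overall 5.18% of common regions were members. Between 2 and 5 kb the shares were 18.2% and 3.31%, and from 5 to 10 kb they were 7.96% and 6.23%. From 10 to 20 kb the shares were 7.30% and 5.78%, from 20 to 50 kb 7.83% and 6.08%, and from 50 to 100 kb 6.84% and 5.84%. The share around members was thus higher at every distance up to 100 kb, and by the most within 5 kb. Each pair of members is counted from both sides, and the pairs share a library.

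**Figure D5:**
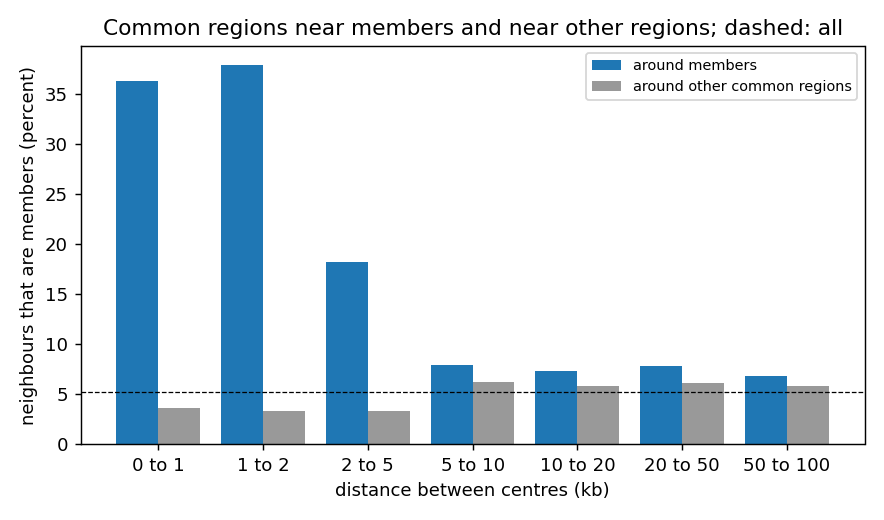
Percent of neighbouring common regions that are members (bars from 0), by distance between centres in kb, around the 1290 members (blue) and around the other common regions (grey), with the overall 5.18% dashed. Bars around members reach 36.4% and 37.9% up to 2 kb and fall to 7.96% between 5 and 10 kb.

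Whether the listing of sites bears on this pattern was not tested. Every listed site has at least 4 times the tag density of its surroundings, a minimum that a weak site beside a strong one can miss. Per 100 members there were 13.8 merged regions of any list for each kb of distance from 0 to 1 kb, 15.2 from 1 to 2 kb, 8.48 from 2 to 5 kb and 18.2 from 5 to 10 kb. Per 100 other common regions the numbers were 17.2, 18.5, 11.2 and 16.4. Members had fewer listed neighbours up to 5 kb and more beyond, and the part of the local minimum in this was not tested. Within 10 kb no other region lay near 28.4% of members (95% interval 26.0 to 31.0), 21.9% of the regions past 1 or 2 thresholds (20.4 to 23.5) and 26.2% of those past none (25.6 to 26.8). Within 50 kb the median was 8 other regions for members, 8 for regions past 1 or 2 thresholds and 7 for those past none. Those with no other region in that range were 1.40% (0.829 to 2.20), 1.51% (1.09 to 2.05) and 2.55% (2.34 to 2.77). At 50 kb members thus resembled the regions that passed 1 or 2 thresholds. Of the regions within 50 kb of members 29.2% were common to all lists, 23.9% in 2 lists and 46.9% in 1, where around the other common regions the shares were 27.1%, 23.8% and 49.1%.

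The closest pair of members lay on chromosome 19, at 8893517 to 8893770 and 8893958 to 8894304, with centres 488 bp apart. The first held 53, 61 and 54 tags and the second 71, 87 and 60. Another member in the same window of 100 kb, chr19:8876934-8877179, held 51, 59 and 38. After centring all 3 were relatively highest in iWAT, by 0.33, 0.42 and 0.33 (log2) over eWAT. On chromosome 10 the members at 38714095 to 38714412 and 38714662 to 38715081 were 618 bp apart, with 52, 41 and 46 and with 67, 50 and 66 tags, and stood only 5.08 to 8.96 times above their surroundings. On chromosome 15 those at 59312438 to 59312681 and 59313110 to 59313337 were 664 bp apart, with 78, 66 and 62 and with 81, 60 and 60 tags, nearly the same level in both.

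Of the 10 windows with 3 members, 5 were picked by the summed eWAT rank of their members. In the window from 59300001 to 59400000 on chromosome 15, 3 of the 4 common regions were members, the pair above and chr15:59381827-59382074. On chromosome 17, from 35300001 to 35400000, 3 of 4 common regions were members, among 12 merged regions of any list, and they were spread over 97.8 kb. On chromosome 1, from 154900001 to 155000000, 3 of 7 were members, the strongest being chr1:154969819-154970056 with 42.8, 75.9 and 52.2 normalized tags. In the windows starting at 129100001 on chromosome 6 and at 8800001 on chromosome 19, 3 of 6 common regions were members in each case, spread over 49.9 kb and 17.4 kb.

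The 21 repeat-like regions set apart were stronger than most members but stood less far above their surroundings. The first megabases of a mouse chromosome lie next to the centromere, whose satellite repeats are poorly represented in genome assemblies. Of the set-apart regions, 7 lay on chromosome 9, 3 on chromosome 11, 3 on chromosome 2, 2 on chromosome 18, 2 on chromosome Y, and 1 each on chromosomes 4, 6, 12 and 17. They were 23.1% of the 91 common regions in the repeat-like stretches. Their median was 236, 202 and 219 tags, and 11 held at least 200 tags in every list, more than among the 1290 members (6). Their median fold over the surroundings was 6.46, 7.43 and 7.55, and 11 of 21 stayed under 8 times in every list. The highest, chr2:98507178-98507400, held 787, 795 and 774 tags. Next on chromosome 2 were 98502746 to 98503125, with 686, 633 and 645 tags, and 98503917 to 98504146, with 558, 502 and 509. On chromosome 9, 3000003 to 3000226 held 386, 362 and 339 tags, and 3035800 to 3036022 held 333, 332 and 333. These 5 stood 4.08 to 11.2 times above their surroundings, far below the 27.4 times and more of the 10 strongest members. The clonal fold, a deposited value that was lower the more tags a site held, was 0.27 to 0.52 in these 5 and 0.29 to 0.77 in the 10 strongest members.

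The set-apart regions were not uniform. An example chosen after its values were seen, chr12:3109929-3110154, stood 73.6, 118.7 and 113.3 times above its surroundings with 160.6, 278.8 and 234.7 normalized tags, values like those of the strongest members. In 14 of the 21 the 3 centres lay within 20 bp, and in 18 all ratios between depots were within 1.5-fold. All common regions on chromosome Y fall under the rule for the first 3.3 Mb, whether or not they hold repeats, and chrY:234000-234260 stood 20.9, 27.5 and 25.2 times above its surroundings.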

How the data were processed

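DNase-seq site lists from 3 libraries were analysed, 1 per depot. STAR, HOMER and mm9 are listed, without roles or versions, per the submitters' processing notes, and the column names are those of HOMER's findPeaks. Per the file headers, the authors deposited for each site a normalized tag count (a signal, scaled to a library total that is not stated), a focus ratio (a fraction), a findPeaks score, a fold (ratio) over the surroundings with its p-value, and a clonal fold. Overlapping or touching sites were merged. Ties at a 10% threshold were kept. The value of 1 tag was estimated as the common step of each list's low values. Distances are between centres. Named regions are the 10 highest by lowest rank, the 3 just inside and outside, the 2 most uneven per pair and direction, the 2 most even, the 5 highest set apart, the 2 lowest per depot among regions that miss 1 threshold, the 3 closest pairs, the 5 windows with most members, and those said to be singled out later. Of the members tied just inside, 3 were named. Members and rules were chosen with earlier results of these data known. There were no replicates, so no test was run. The deposited p-values were not used for selection. Merging and choice were tested on simulated data. Gene, promoter and motif analyses, planned for an mm9 reference, were not made: the tables at hand are of another build. Python 3.11.15, numpy 2.4.6, pandas 2.3.3, scipy 1.17.1 and matplotlib 3.10.9 were used.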

Additional observations from a re-analysis of the deposited data

How the results depend on the processing

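The limits are 1 library per depot, no mm9 annotation of genes or repeats, and tag numbers near 40 at the thresholds, where 1 tag decides membership. Values follow in the order number of regions in every depot's top (set-apart regions included), median normalized tag count in eWAT, iWAT and BAT, median centre offset in bp, share of members with another within 10 kb, and median number of other regions within 50 kb; as reported they are 1311, 32.7, 54.2, 43.7, 37, 5.89% and 8. The highest 5% gave 649, 37.5, 62.1, 51.4, 33, 2.85% and 8. The highest 20% gave 3035, 26.8, 44.3, 35.1, 42, 12.4% and 8. The highest 10% of each whole list gave 2692, 27.4, 45.3, 36.0, 41, 11.7% and 8. Ranking by fold over the surroundings gave 939, 24.4, 40.4, 30.0, 40, 0.215% and 5, and of the 932 not set apart 350 were members. Lists of equal length gave 1166, 33.3, 56.2, 45.4, 36, 4.98% and 7. Merging sites within 200 bp gave 1638, 30.9, 52.2, 41.1, 40, 6.06% and 7. Asking for 50% overlap of sites gave 982, 33.9, 57.1, 46.3, 35, 4.56% and 8. Leaving out ties gave 1188, 33.3, 56.2, 45.4, 36, 5.23% and 8. A lower or higher share, whole lists, wider merging, overlap and ties keep more or fewer regions by construction. For the ranking by fold the cause was not tested. Ranking by the deposited score, leaving out repeat-like regions before ranking and using autosomes alone gave 1353, 1364 and 1297 regions and moved none of the other values beyond their intervals. Centred on the members' median, 0 members were over 2-fold higher in iWAT than in eWAT and 2 in BAT than in eWAT. Past 1.5-fold lay 49 members in iWAT against eWAT (background 9.9% of common regions) and 3 in the opposite direction (10.4%). Between BAT and eWAT, 89 were higher in BAT (11.5%) and 7 in eWAT (11.7%). Between BAT and iWAT, 54 were higher in BAT (12.3%) and 29 in iWAT (12.4%). The rule limits these ratios by construction, so nothing is read from the counts. No paired analysis was possible because each depot has 1 library.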

Other observations

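The 7 members with a focus ratio of at least 0.9 in every list, singled out after their values were seen, were all relatively higher in BAT than in both other depots after centring. Their median centred log2 ratio was 0.47 for BAT over eWAT and 0.40 for BAT over iWAT, and the values ranged from 0.00052 to 0.77 and from 0.14 to 0.95. Among all 1290 members 70.5% were relatively higher in BAT than in eWAT and 51.0% in BAT than in iWAT. Among the 16 other common regions as sharp, outside the repeat-like stretches, 11 were higher in BAT than in eWAT and 11 higher than in iWAT, with medians of 0.07 and 0.14. The 7 regions included chr1:24619476-24619702, with 80, 65 and 115 tags (eWAT, iWAT, BAT), chr4:79649249-79649471, with 74, 51 and 86, and chr8:101406344-101406570, with 51, 57 and 69. The list was formed from the data and carries no test.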
